A study of Homo sapiens with 4 samples.

Results

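Treated H1299 cells were split by how much of their RNA came from transposable elements (TE), and the gene expression of the 922 cells with the most was set beside that of the 922 cells with the least. H1299 is an established line from a human lung cancer of the non-small cell kind. The cells came from the library that received DAC and SB939 together (DAC+SB), and cells with at least 5000 counts over the gene and the TE table were kept, which were 3690 of the 3726 cells of that library. The TE share of a cell is its TE counts divided by its gene and TE counts. The cells were chosen by this measured share: they were ranked on it and cut into 4 groups of equal size, the highest 25% called TE-high and the lowest 25% TE-low. The whole series holds 15289 cells.

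The study profiled H1299 and HCT116, a colorectal cancer line, by single-cell RNA sequencing that reads transcripts from their 5′ end. Each line was given the solvent DMSO or the pair of inhibitors. DAC (decitabine, an inhibitor of DNA methyltransferases) acted for 72 h at 500 nM, and SB939 (an inhibitor of histone deacetylases) for 18 h at 500 nM. Medium with the compounds was changed every 24 h, and cells were at passage 5 to 10. Every combination of line and treatment was 1 library, so TE-high and TE-low cells shared 1 culture and 1 capture. Cells are not replicates, so no test was made and no p-value was computed. Intervals are 95% intervals. Those of levels and ratios cover counting error only. Those of shares of cells treat the cells of 1 library as independent draws, and none covers variation between cultures.

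Transposable elements are repeated sequences that cells keep silent through DNA methylation and histone modification. LTR12 elements are the long terminal repeats of the HERV9 endogenous retroviruses and can act as promoters, and LTR12C is their most numerous kind. Decitabine must be phosphorylated in the cell and built into new DNA, where it traps DNMT1, so that methylation is lost as DNA is copied. Histone deacetylase inhibitors raise histone acetylation and slow the cell cycle of many cancer lines.

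The treated H1299 library held 60497195 gene counts and 1931478 TE counts, with a median of 15784.5 counts per cell. Of its cell barcodes, 20 also occurred in the untreated H1299 library, 18 in the untreated and 30 in the treated HCT116 library, 68 in all. The line label was compared with marker genes. The 10 H1299 markers summed to 1628 CPM (counts scaled to 1000000 gene counts) in TE-low and 1561 CPM in TE-high cells. The 10 HCT116 markers summed to 20.8 and 20.2 CPM. Vimentin (VIM) made up 1237 and 1222 CPM of the H1299 sums and differed by -0.02 in log2, so this check rests mostly on VIM. The marker AXL was at 20.2 CPM in TE-low and 24.4 CPM in TE-high cells, against 204 CPM under DMSO. NNMT, FSTL1, COL4A1 and LOX had too few counts to be tested. ZEB1, a transcription factor of mesenchymal cells, was at 18.9 CPM in TE-low and 11.3 CPM in TE-high cells. It was the only H1299 marker of the 6 tested that passed 1.5-fold, where 7.55% of all genes tested were that much lower.

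The TE share formed 1 broad distribution in treated H1299 cells and did not separate into groups. Its median was 2.57%, against 0.187% in H1299 cells under DMSO, where the share is over the listed elements. Of 189 families with at least 100 counts in TE-low and TE-high cells together, 65 had no count under DMSO (25 Alu families and 40 others, among them LTR12_ and MSTA), and these held 18.1% of the TE counts of both groups. The last TE-low cell had a share of 1.715% and the next cell the same to that precision. The last TE-high cell had 3.897%, as had the next below it. The medians of the 4 groups, from lowest to highest, were 1.28%, 2.12%, 3.11% and 5.13%. Even TE-low cells lay mostly above untreated cells, since 30 of the 3690 treated cells were under the 99th percentile of the DMSO cells (0.519%) and 310 under their maximum (1.09%). One cell had no TE count beside 20429 gene counts.

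**Figure D1:**
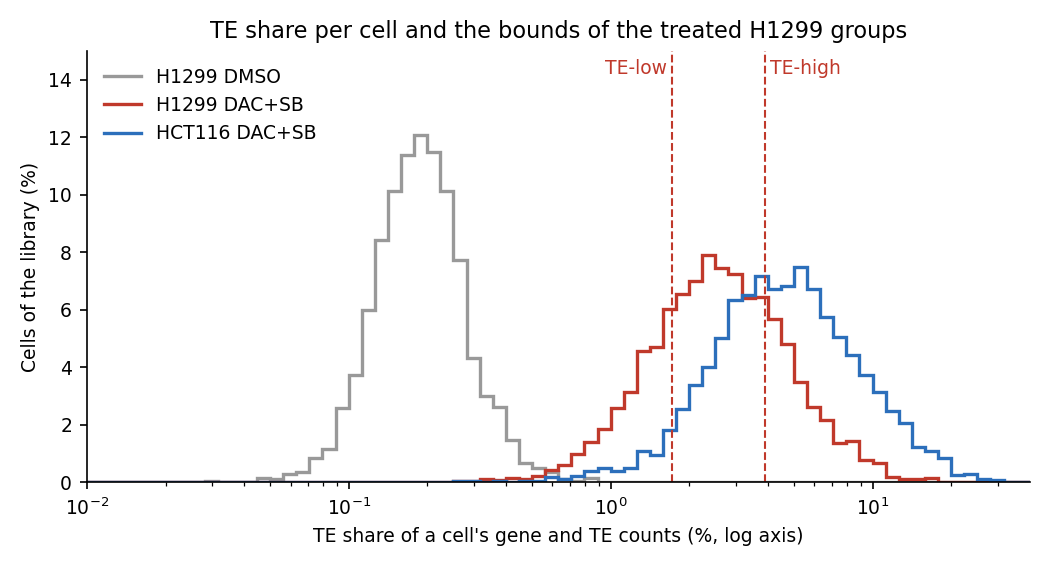
Distribution of the TE share over cells with at least 5000 counts in untreated H1299 and in both treated lines. The x axis is the TE share in percent on a log scale and the y axis the percent of the library's cells; the dashed lines at 1.715% and 3.897% bound the TE-low and TE-high groups of treated H1299, which cut 1 broad peak. The 1 treated H1299 cell without a TE count is off the axis.

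LTR12 elements differed most between TE-low and TE-high cells. These values follow from the rule and are given as a description. Summed over cells, TE made up 1.22% of counts in TE-low and 5.91% in TE-high cells, a 4.83-fold difference. LTR12 elements went from 49.5% of TE counts over 57.2% and 64.5% to 74.0% in the TE-high group, and their level, scaled to gene and TE counts, was 7.21-fold higher there. Alu elements, short repeats without coding capacity, were 3.29-fold higher in level while their part of the TE counts went from 20.5% to 14%. THE1 elements, another retroviral repeat, were 2.45-fold higher. The L1 elements, of which most are old and no longer copy themselves, were 1.58-fold higher, and the 5′ end of L1HS, the youngest of them, 2.47-fold.

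Among the families with at least 2000 counts, the 5 with the highest ratio were LTR12 kinds. LTR12E was 12.2-fold higher (34.0 counts in TE-low and 413.5 in TE-high cells, scaled to 1000000 gene and TE counts). LTR12C, which alone held 44.2% of TE counts in TE-low and 67.3% in TE-high cells, was 7.35-fold higher. The families listed as LTR12_, LTR12D and LTR12 were 6.34-, 6.29- and 5.5-fold higher. Of the 35 such families, 31 were at least 1.5-fold higher and 0 lower, with a median log2 ratio of 1.57. The lowest 5 were LTR50 at 0.12, L1MB7_3end at 0.26, L1MB8_3end at 0.33, MSTB at 0.51 and LTR9 at 0.63 in log2, so these repeats were closer to level than LTR12C.

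TE counts came from many copies in both groups. The 100 loci with most counts held 32.0% of TE counts in TE-low and 38.5% in TE-high cells. After each cell was thinned to 5000 counts, a TE-low cell showed a median of 54 TE loci, and the other groups 85, 119 and 179. The thinned cells of the 4 groups held a median of 63, 105, 156 and 257.5 TE counts. These TE counts follow from the rule, so nothing is read from the rise in loci. The files give no coordinates for the loci, so none was placed in the genome.

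The repeat sets also varied together when a set did not choose the cells. When the groups were drawn by the TE counts of all other sets, LTR12 elements were 2.88-fold higher in the highest group, THE1 2.16-fold, Alu 2.02-fold, MLT 1.93-fold, MST 1.76-fold, MER 1.62-fold and L1 1.5-fold. Cells rich in other repeats were thus also rich in LTR12. The LTR12 ratio was the highest, but each ratio comes from another split of the cells, so the sets are not compared like for like.

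**Figure D2:**
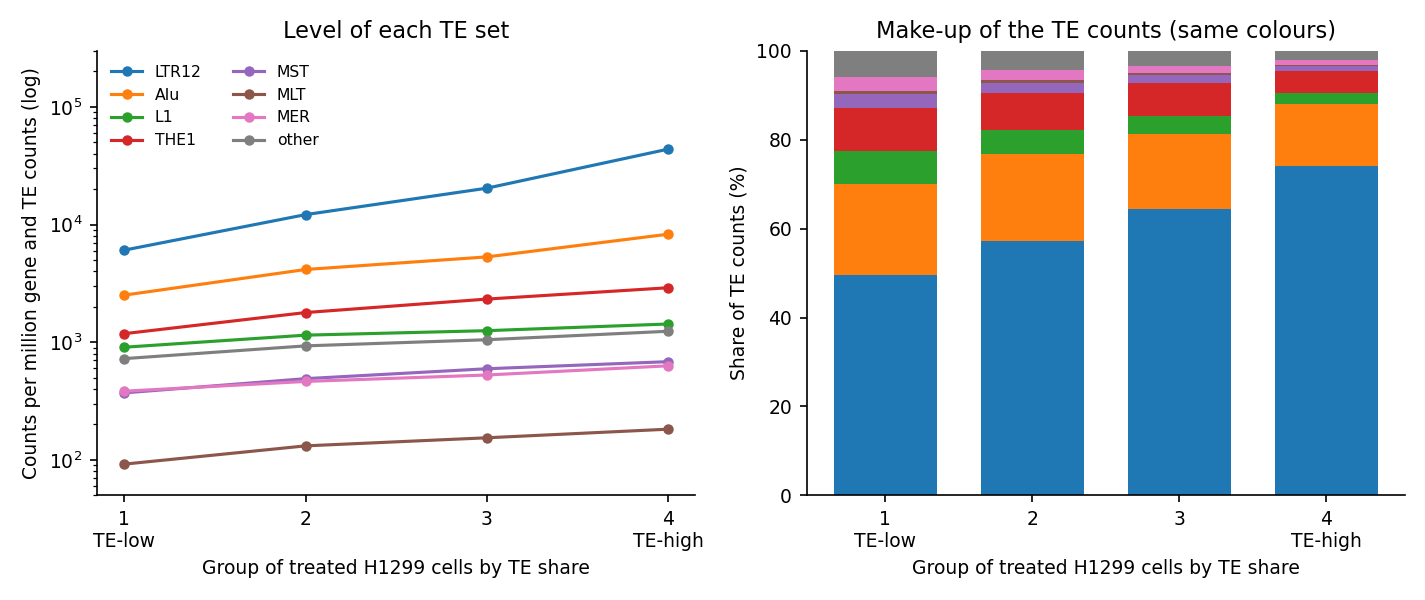
TE sets over the 4 groups of treated H1299 cells by TE share. Left, level of each set, scaled to 1000000 gene and TE counts, on a log axis; right, percent of the TE counts held by each set, with LTR12 going from 49.5% to 74.0%. Each point or bar is a sum over 922 or 923 cells, with no replicate.

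The groups differed little in depth and more in RNA make-up. The median of gene counts per cell was 16005.5 (quartiles 11430 and 21200) in TE-low cells and 14789.5 (11386 and 19221) in TE-high cells, a ratio of 0.924. Across the 3690 cells, the TE share had a Spearman correlation of 0.005 with the total count, 0.080 with the mitochondrial share and 0.257 with the share of ribosomal protein genes. The median mitochondrial share of gene counts was 8.40% in TE-low and 9.70% in TE-high cells. Ribosomal protein genes took a median of 24.0% and 27.4%. At 5000 counts per cell, the median number of genes detected was 1972, 1916, 1863 and 1769 from the TE-low to the TE-high group. These 5000 counts are gene and TE counts together. TE counts took a median of 63 of them in TE-low and 257.5 in TE-high cells, which leaves fewer gene counts in TE-high cells. Gene counts stand in the denominator of the TE share. With the groups drawn inside 10 equal groups of the counts per cell, 486 genes were 1.5-fold higher and 735 lower, and inside 10 equal groups of the mitochondrial share 508 and 709, beside 482 and 749 without. The part of the ribosomal protein share and of the number of genes detected was not tested.

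TE-high cells carried fewer mitotic transcripts. In cells thinned to 5000 counts, the median number of counts from the G2/M list, 56 genes used before and during cell division, was 36, 26, 19 and 14 from the TE-low to the TE-high group. Cells with at least 40 such counts made up 45.6%, 30.7%, 21.9% and 11.4% of the groups. The S phase list, genes of DNA replication, gave medians of 10, 8, 6 and 5 counts. Over cells, the TE share had a Spearman correlation of -0.285 with the G2/M share and -0.256 with the S phase share, with all points from 1 library.

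Across genes, 482 of the 9917 genes with at least 200 counts over both groups were at least 1.5-fold higher in TE-high cells (4.86%), and 749 were at least 1.5-fold lower (7.55%). Levels are in CPM, and a ratio is the TE-high over the TE-low level on a log2 scale. The median gene stood at -0.13. With ratios centred on that gene, 697 were higher and 420 lower, so that genes past 1.5-fold were 62.4% higher ones, against 39.2% before centring. Without mitochondrial and ribosomal protein genes in the denominators the counts were 674 and 573, or 54.0% higher ones. Values below are uncentred and stand beside that median.

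Some genes on the higher side are part of the TE measure itself. A gene can have several numbered features in the gene table, and 144 of these had per-cell counts that followed those of 1 TE locus (Pearson correlation of at least 0.7, and of at least 0.9 in 118). The feature of RP11-206M11.7, for example, held 30225 counts and its LTR12C locus 30192. The feature of DHRS2 held 4591 and its LTR12D locus 4587. Of the 144 matched loci 58 were LTR12 elements. All matched loci together held 6.95% of TE counts, and the matched features 0.239% of gene counts. Of the 82 genes tested with such a feature, 58 were at least 1.5-fold higher and 0 lower. Their counts are partly those that ranked the cells, so nothing is read from this. With the TE share taken over loci that match no gene feature, 490 genes were higher, of which 467 were among the 482. IL16, with 5 counts in TE-low and 321 in TE-high cells, had the highest ratio of all genes tested, 6.12, and was one of them. Without them 424 of 9835 genes were higher (4.31%) and 749 lower (7.62%).

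**Figure D3:**
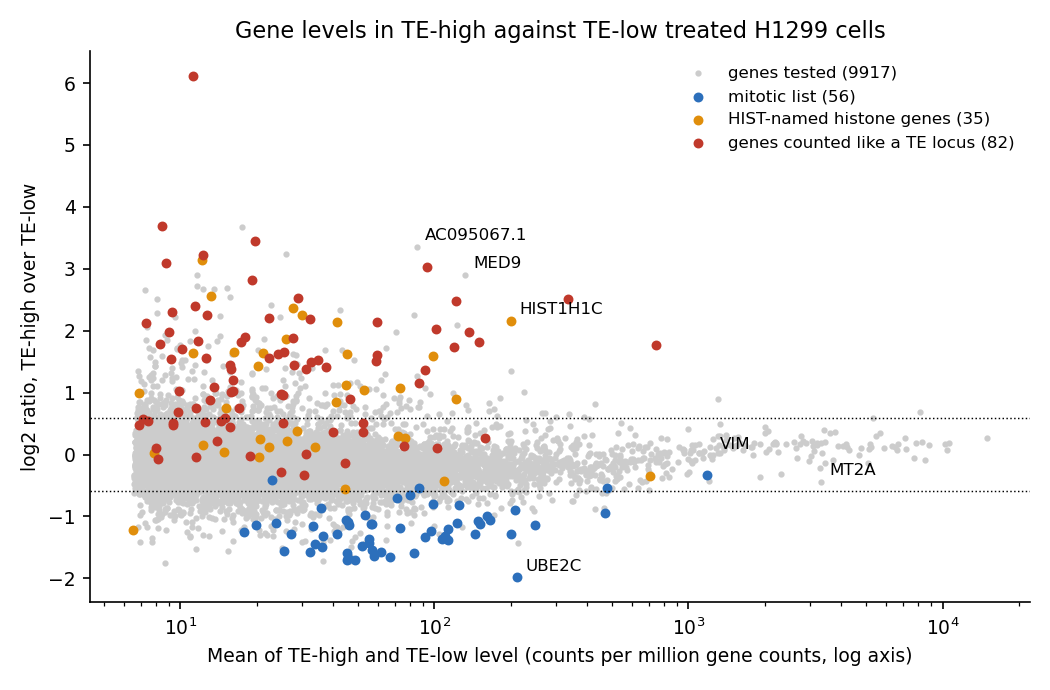
Log2 ratio of each of the 9917 genes tested, TE-high over TE-low cells (y axis), against the mean of both levels in CPM (x axis, log scale). Blue points are the G2/M list, orange points genes with a HIST name, red points genes counted like a TE locus; dotted lines mark 1.5-fold, and 52 of the 56 blue points lie under the lower line.

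Of the 15 highest named genes, 7 were counted like a TE locus and belong to the measure (RP11-70C1.1, RP11-51M18.1, C5orf27, ACSBG1, RP11-973H7.4, DHRS2 and AC093323.3). The other 8 were AC095067.1, MED9, DNAH3, RP11-10O17.1, HIST1H1C, HIST1H4H, DPY19L2P2 and ZNF559. A gene at or near 0 in the DMSO library may have lost counts of features that the table does not list there.

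MED9, a subunit of the Mediator complex that links transcription factors to RNA polymerase (chromosome 17, 17476986 to 17493226 on GRCh38, protein coding), was at 31.1, 52.7, 95.4 and 233 CPM from the TE-low to the TE-high group. Under DMSO it was at 18.2 CPM. The log2 ratio was 2.90 (2.77 to 3.04), a 7.48-fold difference. Its 2 features differed: the plain one had 293 and 819 counts, with a log2 ratio of 1.59, and the numbered one 196 and 2569 counts, with 3.82. No TE locus followed the numbered one at a correlation of 0.7. After thinning, 15.7% of TE-low (exact binomial interval 13.4% to 18.2%) and 53.8% of TE-high cells (50.5% to 57.1%) had a MED9 count, against 7.92% of DMSO cells (7.05% to 8.86%). Without thinning the shares were 35.7%, 77.3% and 24.4%. In the treated HCT116 library, split the same way, MED9 was at 42.7 CPM in TE-low and 261 CPM in TE-high cells.

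AC095067.1, a clone-named transcript, was at 15.2, 38.0, 70.8 and 155 CPM and had no count under DMSO. Its log2 ratio of 3.36 (3.16 to 3.56) was the highest among genes with at least 1000 counts. ZNF559, a zinc finger gene on chromosome 19, was at 28.5, 45.5, 65.0 and 112 CPM, with 6.91 CPM under DMSO. DNAH3, a heavy chain of the axonemal dynein motor that beats cilia, was at 14.1, 25.6, 39.1 and 71.2 CPM without a count under DMSO. The pseudogene DPY19L2P2 was at 46.7, 79.1, 111 and 199 CPM.

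The 4 tested members of a list of genes known to be started from LTR12 promoters were at least 1.5-fold higher, with a median log2 ratio of 1.65, and 1.22 over the 2 that are not counted like a TE locus. All genes past 1.5-fold on that side were 4.86%, and 4.31% of those without such a feature. DHRS2, a short-chain dehydrogenase, and SEMA4D, a semaphorin, were counted like an LTR12 locus. TP63, the transcription factor p63, was not, and was at 11, 17, 21.8 and 27.4 CPM, against 0.0311 CPM under DMSO. TNFRSF10B, a death receptor for TRAIL, was at 32.2, 40.9, 50.1 and 69.5 CPM, with 18.0 CPM under DMSO. The list was compiled from what is known of this promoter, so its members were close to the measure from the start.

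Histone genes differed among themselves. Of 35 tested genes with a HIST name, 20 were at least 1.5-fold higher and 1 lower (beside 4.86% and 7.55% of all genes), with a median log2 ratio of 0.89, and 21 stood in rising order over the groups. HIST1H1C, the linker histone H1.2 (chromosome 6, 26055787 to 26056428, protein coding), was at 72.9, 109, 168 and 326 CPM. Its level under DMSO was 75.7 CPM, close to that of TE-low cells. The log2 ratio was 2.16 (2.07 to 2.26). Both of its features were higher, by 2.51 and 2.02 in log2. HIST1H4H, a histone H4 gene, was at 15.3, 34.3, 44.4 and 67.4 CPM, and 15.8 CPM under DMSO. HIST1H2BD, an H2B gene, was at 11.3, 19.8, 26.7 and 40.9 CPM. With 177 and 595 counts in TE-low and TE-high cells, HIST1H2BD reached the minimum for a tested gene only with the TE-high group. So did several others of the 20, such as HIST1H2BG (165 and 726 counts). HIST1H1C (1145 and 4739) and HIST1H4H (240 and 980) passed it in TE-low cells alone. The 20 of 35 and the median of 0.89 are to be read with that limit.

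Several histone genes that untreated cells barely showed were also among them. HIST1H3A had 39 counts in TE-low and 319 in TE-high cells, a log2 ratio of 3.14. HIST1H2AA had 141 and 673 counts and HIST3H3 60 and 328, and neither had a count under DMSO. HIST1H3A, HIST1H2AA and HIST3H3 reached the minimum for a tested gene only with the TE-high group. H1F0, the replacement linker histone H1.0, has no HIST name and was present in untreated cells, at 20.4 CPM. It was at 79.2, 104, 128 and 158 CPM over the treated groups. This histone is made outside S phase and accumulates in resting cells.

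The 4 HIST genes with the highest level under DMSO, HIST1H4C, HIST1H1E, HIST1H2AG and HIST1H1B, stayed within 1.5-fold, with ratios of -0.35, -0.43, 0.31 and -0.55. HIST1H4C, the most abundant of them, was at 791, 695, 615 and 622 CPM. HIST1H1B, the linker histone H1.5, was at 52.7, 44.3, 32.8 and 35.9 CPM. The next by that order, HIST1H1C, is the one described above as higher, and HIST1H3G, an H3 gene, went from 49.2 to 148 CPM, with 48.6 CPM under DMSO. HIST1H3F was the 1 gene past 1.5-fold on the lower side, at 9.11 CPM in TE-low and 3.92 CPM in TE-high cells. Replication-dependent histone genes are copies of near-identical sequence, and reads could be split among them. The shorter list of 21 tested histone genes also holds variants such as H2AFZ (-0.28) and H3F3B (-0.06). In this list 9 genes were higher (42.9%) and 0 lower, beside 4.86% and 7.55% of all genes, and the median was 0.03. Of the 9, HIST2H2BE (86 counts in TE-low cells), HIST3H2A (162) and HIST1H2BD (177) reached the minimum for a tested gene only with the TE-high group.

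Mitotic genes filled the other end. Most of the 15 lowest named genes are known from mitosis. Of the 56 genes of the G2/M list, 0 were 1.5-fold higher and 52 lower (92.9%, beside 7.55% of all genes), with a median log2 ratio of -1.22. Summed over the list, levels were 8494, 6720, 5598 and 4354 CPM, with 6857 CPM under DMSO, so the sum in TE-low cells was above and that in TE-high cells below the untreated library. Of the 56 members 35 were above their DMSO level in TE-low cells and 4 in TE-high cells, and HN1, TUBB4B, CKS2 and CDC20 made up 1575 of the 1637 CPM between TE-low cells and DMSO. That comparison is of 1 library with another and has no replicate check.

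UBE2C, the ubiquitin-conjugating enzyme of the anaphase-promoting complex (chromosome 20, 45812576 to 45816957, protein coding), was at 337, 187, 136 and 85.3 CPM, and 259 CPM under DMSO. Its log2 ratio of -1.98 (-2.07 to -1.89) was the lowest of the named genes. After thinning, 47.6% of TE-low (44.3% to 50.9%) and 16.8% of TE-high cells (14.5% to 19.4%) had a UBE2C count, against 50% of DMSO cells (48.3% to 51.6%). Without thinning the shares were 65.1%, 32.0% and 75.3%. CDK1, the kinase that drives entry into mitosis, was at 68.0, 42.2, 33.6 and 22.5 CPM. PLK1, a mitotic kinase, was at 85.0, 61.1, 47.6 and 29.1 CPM. AURKB, the kinase that corrects chromosome attachment, was at 92.7, 62.1, 45.4 and 31.1 CPM.

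The remaining genes of the 15 lowest follow. CENPA, the centromeric histone, was at 87.6 CPM in TE-low and 28.2 CPM in TE-high cells, and its chaperone HJURP at 124 and 41.2 CPM. NUF2, a kinetochore subunit, was at 69.4 and 21.7 CPM. The motor proteins KIF20A and KIF2C were at 55.7 and 17.0 CPM and at 69.1 and 21.2 CPM. HMMR, FAM83D, GPSM2, NEK2, DEPDC1 and CDCA2 had log2 ratios between -1.73 and -1.52. The 4 list members that stayed within 1.5-fold were CBX5, CKS2, CTCF and HN1, with ratios from -0.54 to -0.33.

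Promoters of mitotic genes often hold a CCAAT box, the site of NF-Y, and a cell cycle homology region (CHR), the site of the DREAM and MuvB complexes. The 250 bases before the start were searched for CCAAT and TTTGAA on both strands, in RefSeq promoters of GRCh38.p14. CCAAT was in 33 of the 47 G2/M genes with a promoter in that table (70.2%) and in 32.0% of all 35116 promoters. TTTGAA was in 25 of them (53.2%) and in 13.3% of all promoters. Both were in 46.8% and 4.69%. Of the 12 lowest genes with a promoter in the table, 7 held both. The first 3 of these by rank are printed to show how the motifs lie, with HIST1H1C (H1-2 in RefSeq) from the other end of the ranking. Capitals mark matches of either motif on either strand; in HMMR a CCAAT and its reverse complement overlap and 2 TTTGAA adjoin. A match is a description of the letters and was not tested as a site.
DEPDC1, chr1:68497083-68497332, minus strand: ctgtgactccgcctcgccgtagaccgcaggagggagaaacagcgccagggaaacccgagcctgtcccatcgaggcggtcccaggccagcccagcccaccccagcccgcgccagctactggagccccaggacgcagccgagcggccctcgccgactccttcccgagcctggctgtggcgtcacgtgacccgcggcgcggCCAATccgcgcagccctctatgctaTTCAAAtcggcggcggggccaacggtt
HMMR, chr5:163460382-163460631, plus strand: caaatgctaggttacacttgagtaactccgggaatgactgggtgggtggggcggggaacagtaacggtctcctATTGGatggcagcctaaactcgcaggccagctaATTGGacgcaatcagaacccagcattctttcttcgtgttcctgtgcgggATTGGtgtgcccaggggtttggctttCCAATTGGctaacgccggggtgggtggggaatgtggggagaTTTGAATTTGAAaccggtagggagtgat
CENPA, chr2:26785806-26786055, plus strand: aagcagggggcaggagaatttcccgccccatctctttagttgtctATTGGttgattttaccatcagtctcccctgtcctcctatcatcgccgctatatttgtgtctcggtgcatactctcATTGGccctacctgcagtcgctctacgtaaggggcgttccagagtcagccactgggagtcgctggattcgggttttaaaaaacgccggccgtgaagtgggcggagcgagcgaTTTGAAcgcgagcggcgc
HIST1H1C, chr6:26056471-26056720, minus strand: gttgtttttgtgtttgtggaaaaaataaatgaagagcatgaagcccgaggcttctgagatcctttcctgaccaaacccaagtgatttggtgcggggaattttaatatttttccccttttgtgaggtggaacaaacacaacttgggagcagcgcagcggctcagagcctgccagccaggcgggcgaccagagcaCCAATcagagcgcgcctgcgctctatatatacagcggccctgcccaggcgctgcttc

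DEPDC1 held 1 CCAAT and 1 TTTGAA match, HMMR 5 and 2, CENPA 2 and 1, and HIST1H1C 1 and 0. In the histone list, CCAAT was in 16 of 19 promoters (84.2%) and TTTGAA in 3 (15.8%).

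**Figure D4:**
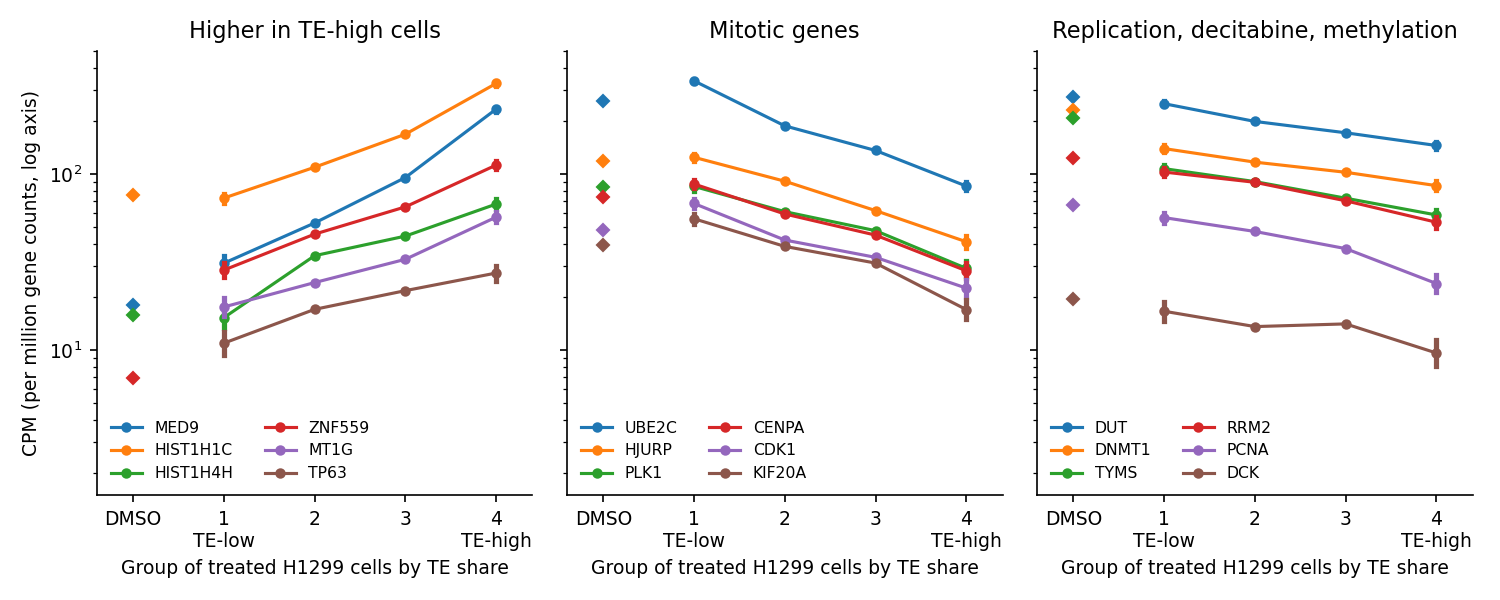
Levels of named genes in the 4 groups of treated H1299 cells (circles; x axis from TE-low to TE-high) and in the H1299 DMSO library (diamonds), in CPM on a log axis. Vertical bars at the TE-low and TE-high group are 95% Poisson intervals for counting error; MT1G and TP63 lie below the axis under DMSO. HIST1H1C goes from 72.9 to 326 CPM and UBE2C from 337 to 85.3 CPM.

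Replication genes leaned the same way, with a smaller median. Of the 42 tested S phase genes, 0 were 1.5-fold higher and 21 lower (50%, beside 7.55% of all genes), with a median log2 ratio of -0.59. PCNA, the sliding clamp of DNA polymerase, was at 56.5, 47.1, 37.7 and 23.9 CPM. MCM7, a subunit of the replicative helicase, was at 134, 109, 95 and 83.8 CPM. CENPU had the lowest ratio of the list, -1.38, at 56.1 and 21.5 CPM in TE-low and TE-high cells. CCNE2, cyclin E2, was the only member above 0, at 0.11. G1 regulators were closer to level, with a median of -0.30 over 19 tested genes, beside -0.13 for all genes. The CDK inhibitor CDKN1A (p21), one of the flatter members, was at 128, 121, 121 and 121 CPM, and 52.6 CPM under DMSO. Of 19 tested G1 regulators (CDK inhibitors, cyclins D, their kinases, RB and E2F genes and genes of growth arrest) 4 were lower (21.1%): the transcription factor E2F1 (-0.89), the CDK inhibitors CDKN2D (-0.72) and CDKN2C (-0.64), and cyclin D2, CCND2 (-0.63, but 0.0896 with the TE share over families other than LTR12).

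The genes that take up, activate or compete with decitabine leaned to the lower side in TE-high cells. Of the 13 tested genes of this list, 0 were 1.5-fold higher and 7 lower (53.8%, beside 7.55% of all genes), with a median log2 ratio of -0.66. DCK, deoxycytidine kinase, which makes the first phosphorylation of decitabine, was at 16.6, 13.6, 14.1 and 9.63 CPM. SLC29A1, a nucleoside transporter, was at 39.9, 29.2, 28.8 and 25.3 CPM. CMPK1 and NME1, kinases of the later steps, had ratios of -0.68 and -0.74. CDA, the deaminase that inactivates decitabine, was at 8.22 CPM in TE-low and 7.36 CPM in TE-high cells. SAMHD1, which degrades deoxynucleotide triphosphates, was at 45.9, 44.1, 40.4 and 35.6 CPM. RRM2, TYMS and DUT supply deoxynucleotides in S phase, the first pair also belongs to the S phase list, and their ratios were -0.95, -0.87 and -0.79.

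DNMT1 was among the lower genes, and most deacetylase genes stayed within 1.5-fold. DNMT1, the maintenance methyltransferase, was at 139, 117, 102 and 85.8 CPM, and 229 CPM under DMSO. UHRF1, which brings DNMT1 to newly copied DNA, was at 44.5, 36.8, 25.6 and 22.2 CPM, and 76.7 CPM under DMSO. These were the 2 genes past 1.5-fold among the 13 tested genes of DNA methylation (15.4%, beside 7.55% of all genes). DNMT3A stood at -0.07, DNMT3B at -0.44 and TET2 at -0.00. Of the 14 tested deacetylase genes, HDAC1 was lower (99.7, 82.6, 71.7 and 65 CPM) and HDAC7 higher (10.2, 14.1, 13.4 and 17.8 CPM). Each is 7.14% of the list, beside 7.55% and 4.86% of all genes, and the list's median was -0.05.

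Of 20 tested genes that silence retroelements, 0 were 1.5-fold higher and 3 lower (15%, beside 7.55% of all genes), with a median log2 ratio of -0.24. The 3 were HELLS, a chromatin remodeller needed for DNA methylation, at 81.6 and 46.9 CPM in TE-low and TE-high cells, CHAF1A, a histone chaperone at replication forks, at 42.6 and 26.0 CPM, and SUV39H2, a histone H3 methyltransferase, at 12.2 and 7.5 CPM. HELLS also belongs to the S phase list. Of the factors known to bind LTR12, NFYA stood at 0.04, NFYB at -0.41, NFYC at -0.43, GATA2 at -0.23, SP1 at -0.09 and SP3 at -0.23, and 0 of the 6 passed 1.5-fold.

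Interferon-stimulated genes did not follow the TE share as a group. Of 16 tested, 1 was higher and 1 lower (6.25% each, beside 4.86% and 7.55% of all genes), with a median log2 ratio of -0.10 beside -0.13 for all genes. The higher one was IFI27, at 5.67, 8.69, 9.31 and 12.9 CPM. The lower one was BST2, tetherin, which holds budding viruses at the cell surface, at 10.7, 8.69, 9.04 and 5.78 CPM. ISG15, a ubiquitin-like protein, was at 90.6, 92.1, 103 and 112 CPM. Among 7 tested sensors of RNA and DNA, MB21D1 (cGAS) was the 1 past 1.5-fold, at 13.8 and 9.15 CPM in TE-low and TE-high cells, while MAVS stood at 0.08.

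Of 13 tested genes of MHC class I presentation, 1 was 1.5-fold lower, HLA-B (7.69%, beside 7.55% of all genes), and 0 were higher. The median log2 ratio was -0.50, beside -0.13 for all genes. PSMB10 (-0.08), PDIA3 (-0.07) and B2M (0.08) stood above that all-gene median, and the others below it. HLA-B was at 119, 109, 97.9 and 77.8 CPM. It was above its DMSO level of 56.0 CPM in each of the 4 groups. B2M, the light chain of the complex, was nearly level, at 302 and 320 CPM in TE-low and TE-high cells.

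Genes known to respond to deacetylase inhibitors leaned to the higher side. Of 21 tested, 7 were 1.5-fold higher and 0 lower, with a median log2 ratio of 0.40. Without DHRS2, which is counted like an LTR12 locus and so part of the measure, 6 of 20 were higher (30%, beside 4.31% of all genes without such a feature) and the median was 0.37. The 7 were CTGF (0.66), SAT1 (0.71), HIST1H2BK (0.89), H1F0 (0.99), HIST2H2BE (1.63), DHRS2 (1.98) and HIST1H1C (2.16), of which 4 are histone genes. Other responders stood near 0, such as GLRX at 0.13, GSN at -0.17 and CDKN1A at -0.07. CLU, clusterin, was at 152 CPM in TE-low cells and at 208, 204 and 209 CPM in the other groups, against 16.6 CPM under DMSO.

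Metallothioneins, small proteins that bind metal ions, went both ways. MT2A, by far the most abundant, was at 3815, 3507, 3333 and 2818 CPM. MT1G was at 17.6, 24.2, 32.8 and 56.8 CPM, and MT1E at 231, 269, 289 and 338 CPM, and both were below 0.1 CPM under DMSO. Few cells carried MT1G: 6.07% of TE-low and 10.4% of TE-high cells had a count after thinning, and 12.6% and 17.9% without. Of 7 tested, 2 were 1.5-fold higher, MT1A and MT1G (28.6%, beside 4.86% of all genes), and 0 lower. MT1A, with 118 and 183 counts in TE-low and TE-high cells, reached the minimum for a tested gene only with the TE-high group. Its levels, 7.52, 11.6, 10.6 and 12.6 CPM, did not rise in order. MT1G passed the minimum in TE-low cells alone, with 276 counts. The sum over the list, which also holds the regulator MTF1 and the zinc transporter SLC30A1, was lower in TE-high cells, at 3311 CPM against 4145 CPM, because MT2A outweighs the others.

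Some genes of the germ line were higher. Of 15 tested cancer-testis antigens, 4 were 1.5-fold higher (26.7%, beside 4.86% of all genes) and 0 lower, with a median log2 ratio of 0.27. They were PAGE5 (1.53), PAGE2 (1.5), SSX3 (0.81) and CTAG2 (0.67), all on the X chromosome, and the first 3 had no count under DMSO. All 4 reached the minimum for a tested gene only with the TE-high group. Their counts in TE-low and TE-high cells were 84 and 224, 65 and 170, 83 and 135, and 113 and 167. The 26.7% is to be read with that limit. MAGEA4, an antigen that untreated H1299 also expressed, was at 159, 163, 166 and 152 CPM. Of 18 tested meiosis and germ cell genes, 3 were higher (16.7%), PIWIL2 (0.60), TDRD6 (0.65) and TEX14 (1.78), and 0 lower. TDRD6 (134 and 194 counts) and TEX14 (71 and 225) also passed the minimum only with the TE-high group. SYCP2, of the synaptonemal complex, stood at -0.42.

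Of 258 tested genes with a ZNF name, which encode zinc finger proteins, 60 were 1.5-fold higher (23.3%) and 3 lower (1.16%), with a median of 0.15. ZNF571, ZNF793 and ZNF607 had ratios of 1.44, 1.39 and 1.29. Of 555 tested transcripts with clone names, 164 were higher (29.5%) and 5 lower, with a median of 0.26, and 45 of the 555 were counted like a TE locus. Without these, 131 of 510 were higher (25.7%), with a median of 0.22, beside 4.31% of all genes without such a feature. The share of ZNF genes stands beside 4.86% for all genes.

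Chaperones and tubulins leaned to the lower side. Of 21 heat shock chaperones 0 were higher and 5 lower (23.8%, beside 7.55% of all genes), with a median of -0.42, and HSPE1, the mitochondrial cochaperone, was at 189, 162, 146 and 108 CPM. Of 12 tubulin genes 5 were lower (41.7%), with a median of -0.36, and TUBA1C was at 228, 181, 146 and 115 CPM. TUBB3, the neuronal tubulin, stood at 0.33. Ribosomal protein genes had a median of 0.14, and 3 of 84 were 1.5-fold higher (3.57%, beside 4.86% of all genes). The 3 were RPL3L (2.42), RPS19 (0.69) and RPS16 (0.59). Of 27 tested MYC and biogenesis targets with no feature counted like a TE locus, 1 was higher (3.70%) and 4 lower, with a median of -0.34. Of all such genes 4.31% were higher and 7.62% lower. MYC, the growth regulator, was at 46.4 and 75.9 CPM, whereas NOP58, a factor of ribosome assembly, was at 104.9 and 55.0 CPM. S100A6, a calcium-binding protein, was at 59.1 and 125 CPM. It was the 1 of 7 tested S100 genes past 1.5-fold (14.3%, beside 4.86% of all genes), and their median was 0.13. Of 10 tested epithelial genes (beside 4.86% higher and 7.55% lower over all genes), 1 was higher, the keratin KRT19 (26.3 and 57.5 CPM), and 2 were lower, the tight junction genes CLDN3 (-0.75) and OCLN (-0.68). KRT18, the most abundant of them, stood at -0.05.

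The comparison was repeated within cell cycle strata, that is, with the groups drawn inside each combination of 3 levels of the S phase and 3 levels of the G2/M share. Then 481 of 9927 genes were higher (4.85%), of which 387 were among the 482, and 197 were lower (1.98%), of which 133 were among the 749. The G2/M median went from -1.22 to -0.25, with 5 of 56 genes lower, and the S phase median from -0.59 to -0.09. UBE2C stood at -0.78 and KIF20A at -0.35. The histone list went from 0.03 to 0.57, with HIST1H1C at 2.07 and HIST1H4H at 2.12. MED9 was at 2.66. MHC class I stood at -0.41. Tubulins stood at -0.06 and heat shock chaperones at -0.17, with 0 of 12 and 0 of 21 genes lower. The decitabine list had a median of -0.29, with 2 of 13 genes lower. RRM2 was on the other side of 0, at 0.058. The strata were made from the G2/M and S phase lists, and the values left in those lists show that cells within a stratum still differed in them.

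The same split in the other libraries is given side by side. In treated HCT116 cells, where each group held 819 cells, 398 of 6952 genes were higher (5.72%) and 632 lower (9.09%). Of the genes tested in both lines, 122 were higher in both, 61.9% of the H1299 and 41.2% of the HCT116 genes on that side. Without genes counted like a TE locus 90 were, 56.6% and 34.7%. On the lower side 150 were shared, 26.7% and 24.1%. HIST1H1C was at 109 and 413 CPM in TE-low and TE-high HCT116 cells. The HCT116 medians were 0.90 for the histone list (0.03 in H1299), -0.60 for G2/M (-1.22) and -0.20 for S phase (-0.59). Whether the lines differ could not be tested with 1 library each.

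In H1299 under DMSO, with 887 cells a group and median TE shares of 0.120% and 0.287%, 405 of 9588 genes were higher (4.22%) and 77 lower (0.803%). The G2/M median was -0.42, with 20 of 56 genes lower, and 52 of the lower genes were shared with treated H1299, 72.2% of the DMSO genes and 7.16% of the treated ones. On the higher side 82 were shared, 23.0% of the DMSO genes and 38.9% of the treated ones. The histone list had a median of 0.02. HIST1H1C stood at 0.14, HIST1H4H at -0.77 and MED9 at 0.02 there, whereas H1F0 stood at 0.87. Mitotic genes thus leaned to TE-low cells without treatment too, but the share that ranked those cells had another make-up. Under DMSO, L1 elements held 44.1% of TE counts and LTR12 elements 10.2%, against 49.5% to 74.0% for LTR12 over the treated groups. The 65 families without a count under DMSO held 18.1% of TE counts in treated TE-low and TE-high cells together. These make-ups are thus over unlike sets of families. TE-low and TE-high DMSO cells had medians of 20 and 50 TE counts. Whether both leanings are the same relation was not tested.

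**Figure D5:**
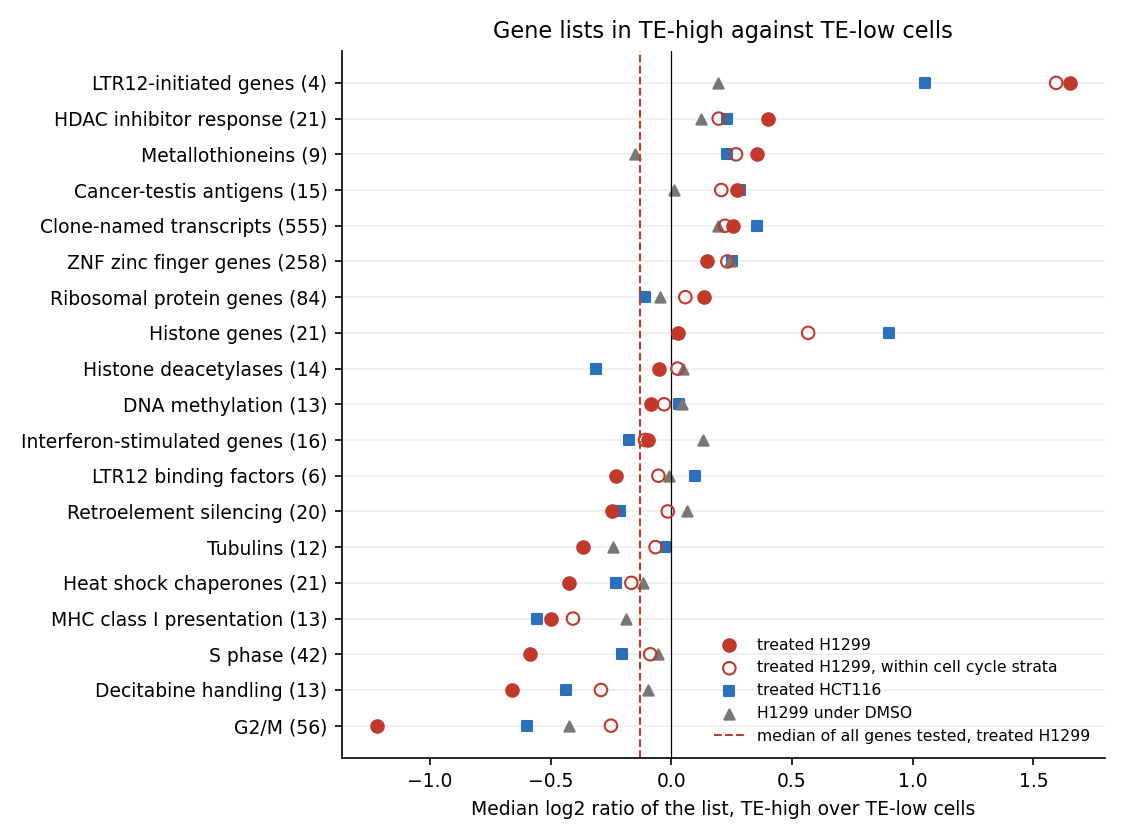
Median log2 ratio of gene lists, TE-high over TE-low cells, for treated H1299 cells (filled circles), the same within cell cycle strata (open circles), treated HCT116 cells (squares) and H1299 cells under DMSO (triangles). Numbers in brackets are the genes tested in treated H1299; the dashed line is the median of all genes tested there, -0.13, and the G2/M list stands at -1.22, -0.25, -0.60 and -0.42.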

How the data were processed

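The values used are counts, which the authors deposited as whole numbers in a gene table and a TE locus table, with the library in each cell's name. Per the submitters' processing notes, CASAVA and STAR were used with GRCh38 (hg38). The counting tool, the annotation, the filter on cells and whether the counts are of molecular identifiers were not given in the sources used here. Cells were taken by the library name in their barcode, and no column of another sample was present. Numbered features of a gene were summed, and the 2419 names that join several genes, with 11.8% of gene counts in these cells, were left out of the genes but kept in the totals. Counts were summed over the cells of a group and divided by their gene counts (TE: gene and TE counts). Ratios carry exact conditional binomial 95% intervals, and levels Poisson intervals. Genes entered with at least 200 counts over both groups. A gene with few counts in TE-low cells can thus have entered through the TE-high group, and the reverse. Thinning drew 5000 counts per cell without replacement, from its gene and TE counts together. No doublet caller was run.

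Named genes are the 15 highest and 15 lowest with at least 1000 counts, an interval that excludes a ratio of 1 and groups in order, together with list members past 1.5-fold and members described by role; others were chosen after their values were seen. The members and the 43 gene lists were chosen with earlier results of these data known. The scripts were tested on simulated counts. Some genes are not reported here. Gene positions are from GENCODE release 29 by symbol. Versions were Python 3.11.15, numpy 2.4.6, scipy 1.17.1, pandas 2.3.3, pyarrow 21.0.0 and matplotlib 3.10.9.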

Additional observations from a re-analysis of the deposited data

How the results depend on the processing

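Of 22 alternatives, 4 were chosen after seeing the data. They concern genes counted like a TE locus, loci that match no gene feature and cells in the DMSO range of TE share. Under the 22 alternatives, the 15 highest and 15 lowest genes kept their sign in 646 of 646 values. These genes were picked for extreme ratios in the same cells, and some of the highest are counted like a TE locus. Their sign was thus close to fixed in advance. The other 110 genes followed kept theirs in 2211 of 2275 values, and the list medians in 837 of 900. Of the 102 followed genes past 1.5-fold, 2 changed sign, RRM2 within cell cycle strata (0.058) and CCND2 with the TE share over families other than LTR12 (0.0896). The counts of genes (482 higher, 749 lower) were 387 and 257 with 50% of the cells in each group, 361 and 1085 of 6228 tested with 10% of the cells in each group, 190 and 138 at 2-fold, 1399 and 1084 with at least 50 counts per gene, 119 and 290 with at least 1000, 193 and 466 after thinning to 5000 counts, 481 and 197 within cell cycle strata, 462 and 488 with the TE share over families other than LTR12, and 697 and 420 after centring. The minimum of 1000 counts and thinning leave fewer genes tested, the minimum of 50 more, and a 2-fold threshold asks for a larger ratio; for the other changes the cause was not tested. The ratio of gene counts per cell (0.924) was 0.979 with 50% of the cells in each group, 0.903 with at least 10000 counts per cell, 0.986 within 10 equal groups of the mitochondrial share, 0.958 without the 5% deepest cells, 0.890 without mitochondrial and ribosomal protein genes, 0.969 with the share over other families, and on the other side of 1 within cell cycle strata (1.00). No paired analysis was possible because TE-high and TE-low cells come from 1 library and no cell of 1 group is matched to a cell of the other. With 1 library, nothing here measures variation between cultures, and genes with few counts are limited by depth.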
